A study of Mus musculus with 6 samples.

Results

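The nuclear factor I (NFI) and FoxO transcription factors, with 3 genes linked to growth factor restraint and stress, were followed in mouse neural stem cells that are grouped by a Spot14 reporter. The set held 10 genes: Nfia, Nfib, Nfic, Nfix, Foxo1, Foxo3, Foxo6, Lrig1, Txnip and Sesn1. Every probe set annotated to exactly 1 of these genes was taken, which gave 39 of 45037 probe sets and covered 9 of the 10 genes, of 18193 genes with a probe set; no probe set carried Foxo6 alone or with another gene. The arrays held total RNA of mouse neural stem cells that were Spot14 GFP positive (3 arrays) or Spot14 GFP negative (3 arrays), called biological replicates in the series' design text. GFP is the green fluorescent protein, and Spot14 is the protein made from Thrsp, a thyroid hormone responsive gene of lipogenic tissues. Strain, age, sex, brain region, culture and the allele that carries the reporter are not given in the sources used here. Values are the deposited GCRMA signals on the log2 scale, so that a difference of 1 is a 2-fold change, and a signal under log2 4 was treated as near background.

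NFI proteins bind DNA as dimers through a shared amino-terminal domain. In the developing brain they promote the switch from making neurons to making astrocytes, and in adult neural stem cells they are known for supporting quiescence. FoxO proteins are forkhead factors that growth factor signalling through PI3K and AKT keeps out of the nucleus; when active they hold cells out of division and raise genes of oxidative stress defence. Lrig1 is a membrane protein that restrains EGF receptor signalling and marks quiescent stem cells in several tissues. Txnip binds thioredoxin and lowers glucose uptake, and Sesn1 is a sestrin that restrains the growth kinase complex mTORC1; both are known FoxO target genes.

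To show what a FoxO match looks like in the start regions of these targets, 300-base windows (250 bases before to 50 after the annotated start, RefSeq, build GRCm38.p6) were searched for the FoxO motif TGTTTAC on both strands. Such windows were found for 8 of the 10 genes, 12 windows in all, and 2 of them held the motif: one of Txnip and one of the 2 windows of Sesn1. Of all 32851 windows of this length, 3.65% held it. The Txnip window (chr3:96557707-96558006, plus strand) carries it as GTAAACA from position −121 relative to the start, and the Sesn1 window (chr10:41810324-41810623, plus strand) as TGTTTAC from base 23 after it. Capitals mark the motif.
Txnip: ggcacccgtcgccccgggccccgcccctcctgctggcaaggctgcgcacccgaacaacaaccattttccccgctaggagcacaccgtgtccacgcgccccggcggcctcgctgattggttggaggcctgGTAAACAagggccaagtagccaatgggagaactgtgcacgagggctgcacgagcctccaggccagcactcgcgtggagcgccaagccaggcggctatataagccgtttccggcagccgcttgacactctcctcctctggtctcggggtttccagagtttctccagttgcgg
Sesn1: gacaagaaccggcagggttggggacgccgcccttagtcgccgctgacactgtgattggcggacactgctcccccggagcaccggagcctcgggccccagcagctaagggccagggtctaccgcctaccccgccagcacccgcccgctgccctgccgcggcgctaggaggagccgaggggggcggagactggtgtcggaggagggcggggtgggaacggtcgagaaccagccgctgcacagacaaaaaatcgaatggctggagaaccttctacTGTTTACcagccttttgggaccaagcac
The palindromic NFI motif (TTGGC and GCCAA with 5 bases between them), its shorter form TTGGCA and the E-box CACGTG, each searched on both strands, matched none of the 12 windows; 0.0365%, 14.1% and 7.15% of all windows hold them. A match describes the letters in a window and shows no binding.

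Of the 39 probe sets, 28 reached log2 4 on at least 3 arrays and were tested, and each of these lay above log2 4 on all 6 arrays. None of the 28 passed limma at an adjusted p under 0.05, against 1.87% of all 21837 probe sets tested (1.03% higher, and 0.843% with a lower mean). Before adjustment, 4 had p under 0.05, all of them higher in GFP positive cells (Txnip, Foxo1, Nfix and Nfic, 1 probe set each), where 8.26% of the table was higher and 7.46% lower. The difference was above 0 for 26 of the 28, with a median of 0.26; of all probe sets tested, 49.5% lay above 0, and their median was −0.0050. The 28 belong to 9 genes and share the same RNA, so they are not independent, and their signs were not tested as a set. Without GFP negative replicate 3, an array that stood apart, 21 of the 28 lay above 0 and the median was 0.20. The groups did not overlap for 8 of the 28 (28.6%, against 22.8% of the table). With 3 arrays against 3, an exact 2-sided permutation test cannot go below p = 0.1, which is its value at each of these 8.

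**Figure D1:**
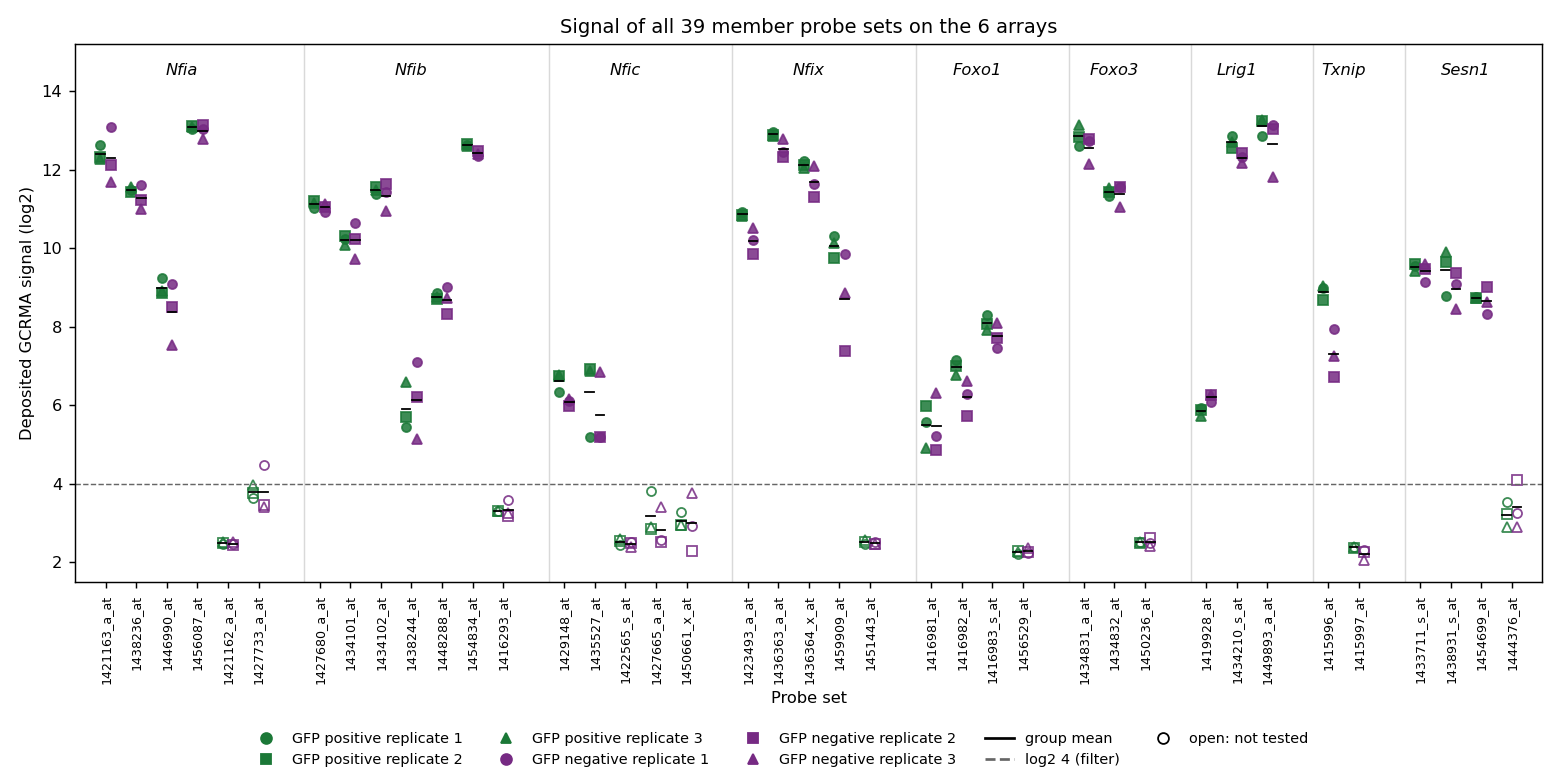
Deposited GCRMA signal (log2) of all 39 probe sets of the 9 measured genes on the 3 GFP positive arrays (green) and the 3 GFP negative arrays (purple), with group means as bars; open symbols were not tested and the dashed line is log2 4. Probe sets of 1 gene differ widely in level, and the 11 open ones lie between 2.07 and 4.47.

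The arrays had medians of 3.55 to 3.67. GFP negative replicate 3 stood apart: over tested probe sets, which are not independent replicates, its correlation with the other GFP negative arrays was 0.940 and 0.942, while the other within-group correlations were 0.973 to 0.988. At the control probe sets, 3′ signal exceeded 5′ signal most on GFP negative replicate 2: by 2.33 for Gapdh (1.14 to 1.65 elsewhere) and by 2.65 for beta-actin (1.77 to 2.03 elsewhere), in log2. Neural stem cell markers were present throughout, except that Prom1 stayed under log2 4, and Hes5 was dim (4.35 to 5.26). The mean of 10 markers was 10.62 to 10.72 on the GFP positive arrays against 10.40 to 10.52 on the GFP negative ones. Of the 9 tested, 7 had a difference above 0 and 2 below (Nes, −0.49, and Fabp7, −0.01), and none passed limma. Before adjustment 2 were higher with p under 0.05: Nr2e1 (0.86, limma adjusted p = 0.0577) and the dim Hes5 (0.53, limma adjusted p = 0.284). Without GFP negative replicate 3 Nr2e1 passed (0.83, limma adjusted p = 0.0394). Of 7 microglia markers 6, and of 6 endothelial markers 5, lay under log2 4 on every array. The mean of 5 ependymal markers was highest on GFP negative replicate 3, at 6.11. It was 5.29 and 4.92 on GFP negative replicates 1 and 2, and 5.46 to 5.92 on the GFP positive arrays. Of these markers 4 were tested and none passed limma. Of 5 oligodendrocyte progenitor markers 4 were tested and none passed limma, but all 4 had a lower mean in GFP positive cells (2 with an unadjusted p under 0.05), and the list means did not overlap (7.78 to 8.04 against 8.14 to 8.53). Neuronal and pericyte markers were mostly not tested: 3 of 7 and 4 of 5 lay under log2 4 on every array, and 2 and 1 were tested. The neuronal Neurod1 (−1.06) and the pericyte Acta2 (−1.29) were lower before adjustment and did not pass (limma adjusted p = 0.121 and 0.0717). The other tested neuronal marker, Map2, differed by −0.34 (limma adjusted p = 0.538). Cell division genes were lower in GFP positive cells: 7 of 10 fell, with a median difference of −1.83. Of 8 astrocyte markers 3 rose, with list means of 11.40 to 11.51 against 10.11 to 10.50. The part of these shifts in the differences below was not tested, and in RNA from many cells fewer cells of a type cannot be told from less RNA per cell. Thrsp, the reporter's own gene, read 14.21 ± 0.10 and 13.56 ± 0.15 (SD, n = 3 each) and did not pass (limma adjusted p = 0.140).

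Nfia, a factor that starts astrocyte formation, was bright and near level between the groups at its brightest probe set (1456087_at). It read 13.04, 13.12 and 13.09 on GFP positive replicates 1 to 3 and 13.04, 13.14 and 12.78 on GFP negative replicates 1 to 3. The difference was 0.10 (SE 0.18, 95% interval −0.34 to 0.53, limma adjusted p = 0.864). All 4 tested Nfia probe sets had their lowest value on GFP negative replicate 3, the array that stood apart. At 1446990_at that array read 7.54, against 9.08 and 8.51 on the other GFP negative arrays and 9.23, 8.85 and 8.90 on the GFP positive ones. There the difference was 0.61 with all arrays and 0.19 without GFP negative replicate 3. At 1421163_a_at the highest and the lowest value of all arrays both lay in the GFP negative group, 13.09 on replicate 1 and 11.69 on replicate 3. Its difference of 0.10 turned to −0.20 without replicate 3, and that of 1456087_at to −0.0064. The 4 differences ran from 0.10 to 0.61, and every interval held 0.

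Nfib, which acts with Nfia in glial differentiation, had 6 tested probe sets with differences from −0.23 to 0.21. The brightest (1454834_at) read 12.63, 12.65 and 12.59 in GFP positive and 12.36, 12.48 and 12.40 in GFP negative cells. The groups did not overlap there, and the difference was 0.21 (SE 0.17, 95% interval −0.19 to 0.60, limma adjusted p = 0.638). Its group SDs were only 0.033 and 0.060. Without the filter, limma gave the same difference an SE of 0.049 (unadjusted p = 0.00813, adjusted p = 0.199). The means of the other 4 probe sets with a difference above 0 lay between 8.69 and 11.48, and their differences were 0.012 to 0.14. The dimmest tested probe set (1438244_at) read 5.44, 5.70 and 6.60 against 7.09, 6.20 and 5.14. It was the only tested Nfib probe set of opposite sign, and both its highest and its lowest value lay in the GFP negative group. Its interval, −1.48 to 1.02, covers those of the other 5.

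Nfic, the NFI member best known from tooth root formation, had 2 tested probe sets of 5. The brighter tested probe set by mean (1429148_at) read 6.35, 6.74 and 6.78 in GFP positive and 6.11, 5.98 and 6.17 in GFP negative cells. No GFP negative array reached the GFP positive range, and the groups differed by 1.45-fold in the mean (difference 0.54, SE 0.20, 95% interval 0.07 to 1.01). The unadjusted p was 0.0294 and the limma adjusted p 0.248. The other tested probe set (1435527_at) took 2 levels that did not follow the groups. It read 5.19, 6.93 and 6.87 in GFP positive and 5.19, 5.20 and 6.85 in GFP negative cells, so that GFP positive replicate 1 sat with the lower GFP negative arrays and GFP negative replicate 3 with the higher GFP positive ones. Its difference was 0.58, with an interval of −0.89 to 2.05. With 1 array left out it ran from 0.28 (without GFP positive replicate 2) to 1.15 (without GFP positive replicate 1); without GFP negative replicate 3 it was 1.13.

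Nfix, a factor that induces quiescence in neural stem cells in culture, was higher in the mean of GFP positive cells at all 4 tested probe sets, by 0.38 to 1.36. The brightest (1436363_a_at) read 12.96, 12.89 and 12.85 against 12.44, 12.33 and 12.79, a difference of 0.38 (SE 0.19, limma adjusted p = 0.422). At 1423493_a_at the values were 10.92, 10.84 and 10.82 against 10.21, 9.85 and 10.52. Every GFP positive array lay above every GFP negative array, 1.59-fold in the mean (difference 0.67, SE 0.22, 95% interval 0.15 to 1.19, limma adjusted p = 0.204). At 1436364_x_at the difference was 0.45 (SE 0.24, limma adjusted p = 0.443) and the groups overlapped, with GFP negative replicate 3 at 12.09 above GFP positive replicate 3 at 12.03. The widest difference was at 1459909_at, which read 10.30, 9.75 and 10.14 against 9.85, 7.39 and 8.86. That is 2.57-fold in the mean, with a 95% interval of 0.999 to 6.61-fold (limma adjusted p = 0.319).
GFP negative replicate 2 gave the lowest value at all 4 Nfix probe sets, and GFP positive replicate 1 the highest. Without GFP negative replicate 2 the difference at 1459909_at was 0.71 in place of 1.36, and with the 3′ to 5′ ratio as a covariate it was 0.48. At 1423493_a_at the same settings gave 0.50 and 0.50 in place of 0.67, at 1436363_a_at 0.29 and 0.31 in place of 0.38, and at 1436364_x_at 0.26 and 0.28 in place of 0.45. Without GFP negative replicate 3 all 4 differences were larger. They were 1.44 at 1459909_at, 0.83 at 1423493_a_at, 0.51 at 1436363_a_at and 0.66 at 1436364_x_at, and none passed (limma adjusted p = 0.0540 to 0.247). The probe sets 1436363_a_at and 1436364_x_at followed each other closely: relative to their own means they differed by at most 0.23 on any array. Against 1459909_at, 1436363_a_at differed by 1.62 on GFP negative replicate 2. Of the NFI genes, 15 of 16 tested probe sets had a difference above 0, with a median of 0.21. Without GFP negative replicate 3 it was 11 of 16, with a median of 0.16, and the 5 below 0 were all of Nfia or Nfib. The 16 probe sets belong to 4 genes and are not independent.

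**Figure D2:**
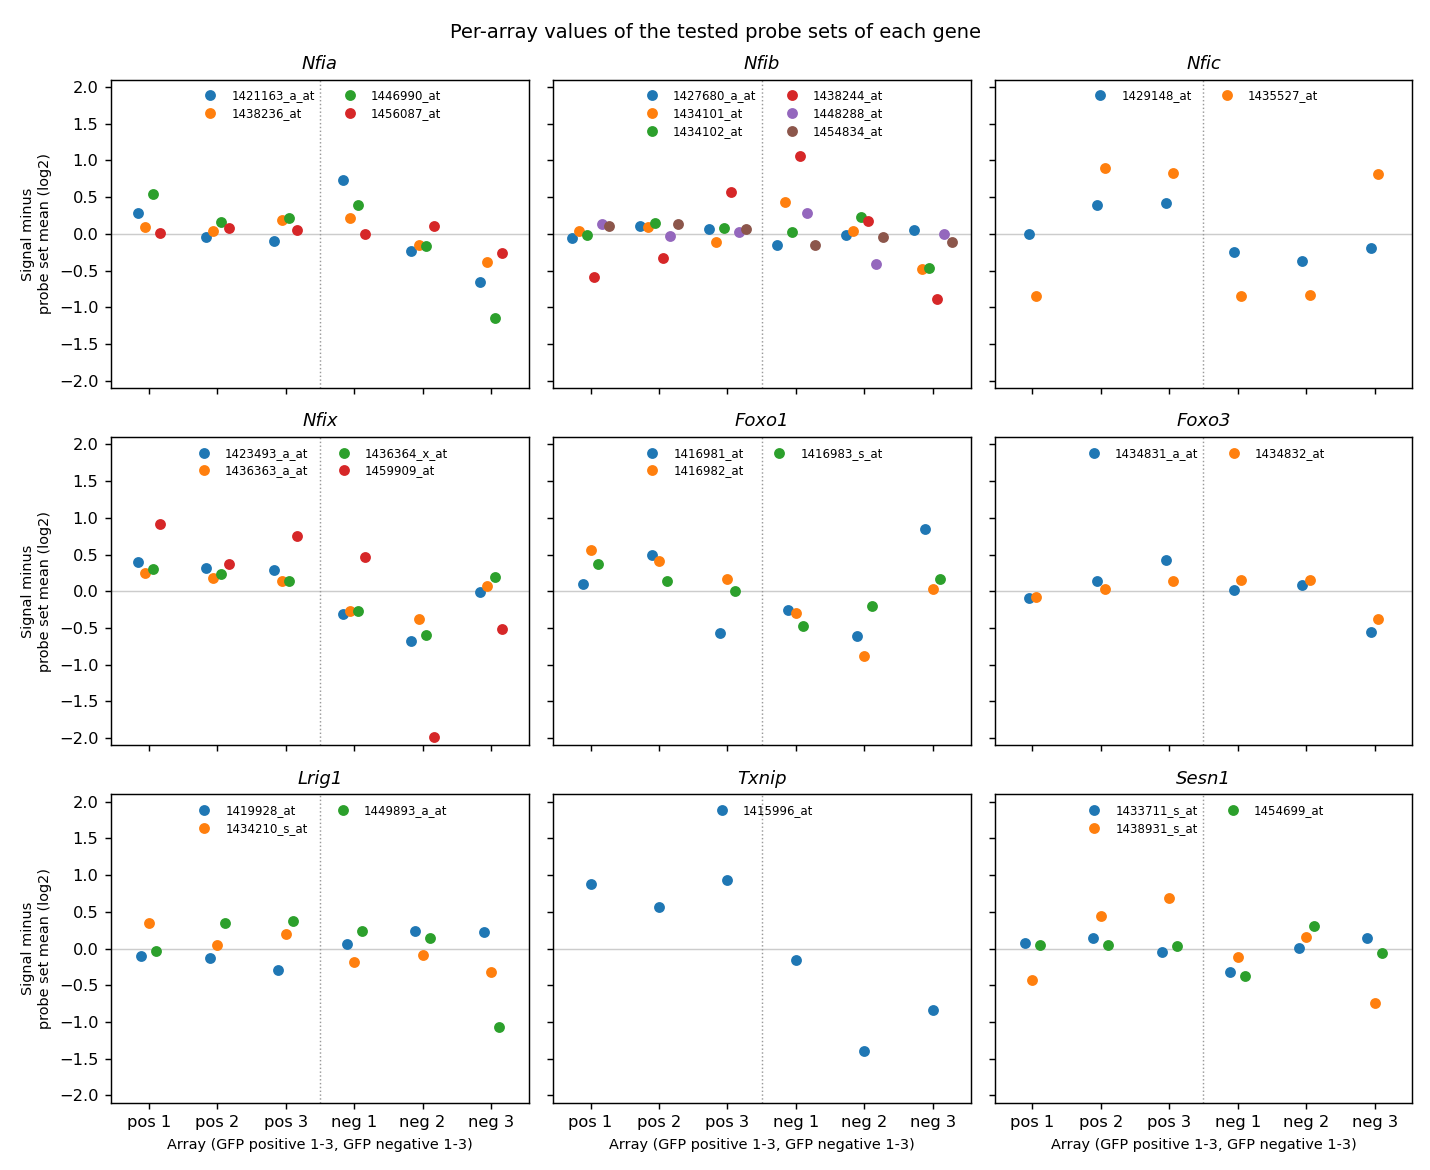
Signal of each tested probe set minus its own mean over the 6 arrays (log2), by gene, for GFP positive arrays 1 to 3 (left of the dotted line) and GFP negative arrays 1 to 3 (right); each colour is a probe set. Nfix and Txnip are low on GFP negative replicate 2, Nfia and Foxo3 on GFP negative replicate 3, and the probe sets of Lrig1 part on that array.

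Foxo1 had 3 tested probe sets, with differences from 0.02 to 0.76 whose intervals overlapped (exact 2-sided permutation p = 0.2 to 0.5 for the gaps between them). At 1416982_at the values were 7.15, 7.01 and 6.76 in GFP positive and 6.30, 5.72 and 6.62 in GFP negative cells. The groups did not overlap, though by only 0.14, and the mean was 1.69-fold higher (difference 0.76, SE 0.27, 95% interval 0.12 to 1.40). It did not pass (unadjusted p = 0.0264, limma adjusted p = 0.236). GFP negative replicate 2 was its lowest array. Without it the difference was 0.51, and with the 3′ to 5′ covariate 0.50. Without GFP negative replicate 3 it was 0.96 (limma adjusted p = 0.0716). The brightest probe set (1416983_s_at) read 8.29, 8.07 and 7.93 against 7.45, 7.72 and 8.09, where GFP negative replicate 3 lay among the GFP positive arrays. Its difference was 0.35 (SE 0.23, limma adjusted p = 0.551), and 0.52 without that array. The dimmest (1416981_at) read 5.58, 5.98 and 4.91 against 5.22, 4.86 and 6.32. Here GFP negative replicate 3 was the highest of all arrays, and the difference was 0.02, or 0.45 without it.

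Foxo3, a FoxO factor needed to keep adult neural stem cells from being used up, was bright, and the interval held 0 at both tested probe sets. The brightest probe set (1434831_a_at) read 12.61, 12.84 and 13.13 against 12.72, 12.79 and 12.15. The groups overlapped, the difference was 0.31 (SE 0.25, 95% interval −0.29 to 0.90, limma adjusted p = 0.644), and without GFP negative replicate 3 it was 0.11. The other tested probe set (1434832_at) read 11.33, 11.44 and 11.54 against 11.56, 11.56 and 11.04, a difference of 0.05 that became −0.12 without GFP negative replicate 3. At both, that array was the lowest of the 6.
Foxo4, a FoxO gene outside the set, was 1.64-fold higher in the mean at its brightest probe set, 11.16 ± 0.11 against 10.44 ± 0.18 (SD, n = 3 each). Its groups did not overlap and it did not pass (unadjusted p = 0.00662, limma adjusted p = 0.119); without GFP negative replicate 3 the difference was 0.81 and it passed (limma adjusted p = 0.0483), and with array weights it passed at a limma adjusted p of 0.0247.

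Lrig1 gave 3 tested probe sets, of which 2 had a difference above 0 and 1 below. The brightest (1449893_a_at) read 12.86, 13.24 and 13.26 in GFP positive and 13.13, 13.04 and 11.82 in GFP negative cells. Only GFP negative replicate 3 lay apart: the difference was 0.46 with it (SE 0.37, limma adjusted p = 0.643) and 0.04 without it. At 1434210_s_at the values were 12.85, 12.56 and 12.70 against 12.32, 12.42 and 12.18. These groups did not overlap, and the difference was 0.40 (SE 0.18, 95% interval −0.04 to 0.83, limma adjusted p = 0.365) or 0.34 without GFP negative replicate 3. The remaining one (1419928_at) ran the other way: 5.93, 5.89 and 5.74 against 6.09, 6.27 and 6.25. GFP positive arrays were all lower there, 1.27-fold in the mean (difference −0.35, SE 0.17, limma adjusted p = 0.409). Without the filter, limma gave this difference an SE of 0.080 (unadjusted p = 0.00700, adjusted p = 0.187). The difference at 1419928_at lay 0.75 below that at 1434210_s_at and 0.80 below that at 1449893_a_at; exact 2-sided permutation tests of these gaps gave p = 0.1, the smallest possible, and p = 0.2. Between 1434210_s_at and 1449893_a_at the same exact permutation test gave p = 0.9.

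Txnip had the largest difference among the members. Its bright probe set (1415996_at) read 8.98, 8.67 and 9.03 in GFP positive and 7.94, 6.71 and 7.26 in GFP negative cells. The groups did not overlap, and the mean was 3.00-fold higher (95% interval 1.76 to 5.13-fold; difference 1.59, SE 0.33). The unadjusted p was 0.00185 and the limma adjusted p 0.0669, which missed the threshold. With 1 probe set per gene, which leaves fewer tests, the same difference passed (limma adjusted p = 0.0386). Array weights gave 1.43 and a pass as well (limma adjusted p = 0.0357), and over all 16 alternatives the adjusted p ran from 0.0357 to 0.257. Leaving out GFP negative replicate 2, the lowest array, gave a difference of 1.29. With the 3′ to 5′ covariate it was 1.15. The difference was 1.56 without GFP negative replicate 3. The other Txnip probe set (1415997_at) lay near background, at 2.07 to 2.40, and measured no usable level, so that Txnip rests on 1 probe set.

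Sesn1, the other FoxO target in the set, had differences of 0.09 to 0.47 at its 3 tested probe sets, and every interval held 0. The brightest (1433711_s_at) read 9.55, 9.61 and 9.42 against 9.14, 9.48 and 9.61, a difference of 0.12 (SE 0.20, 95% interval −0.35 to 0.59, limma adjusted p = 0.848). At 1454699_at the 3 GFP positive arrays were nearly equal, 8.75, 8.74 and 8.73, and lay inside the GFP negative range of 8.33 to 9.0. The probe set 1438931_s_at varied more, with 8.78, 9.64 and 9.90 against 9.09, 9.36 and 8.46; its difference was 0.47 (SE 0.36, limma adjusted p = 0.619). That difference ran from 0.22 without GFP negative replicate 3 to 0.80 without GFP positive replicate 1. Txnip and Sesn1, whose windows are printed above, were not tested against each other.

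**Figure D3:**
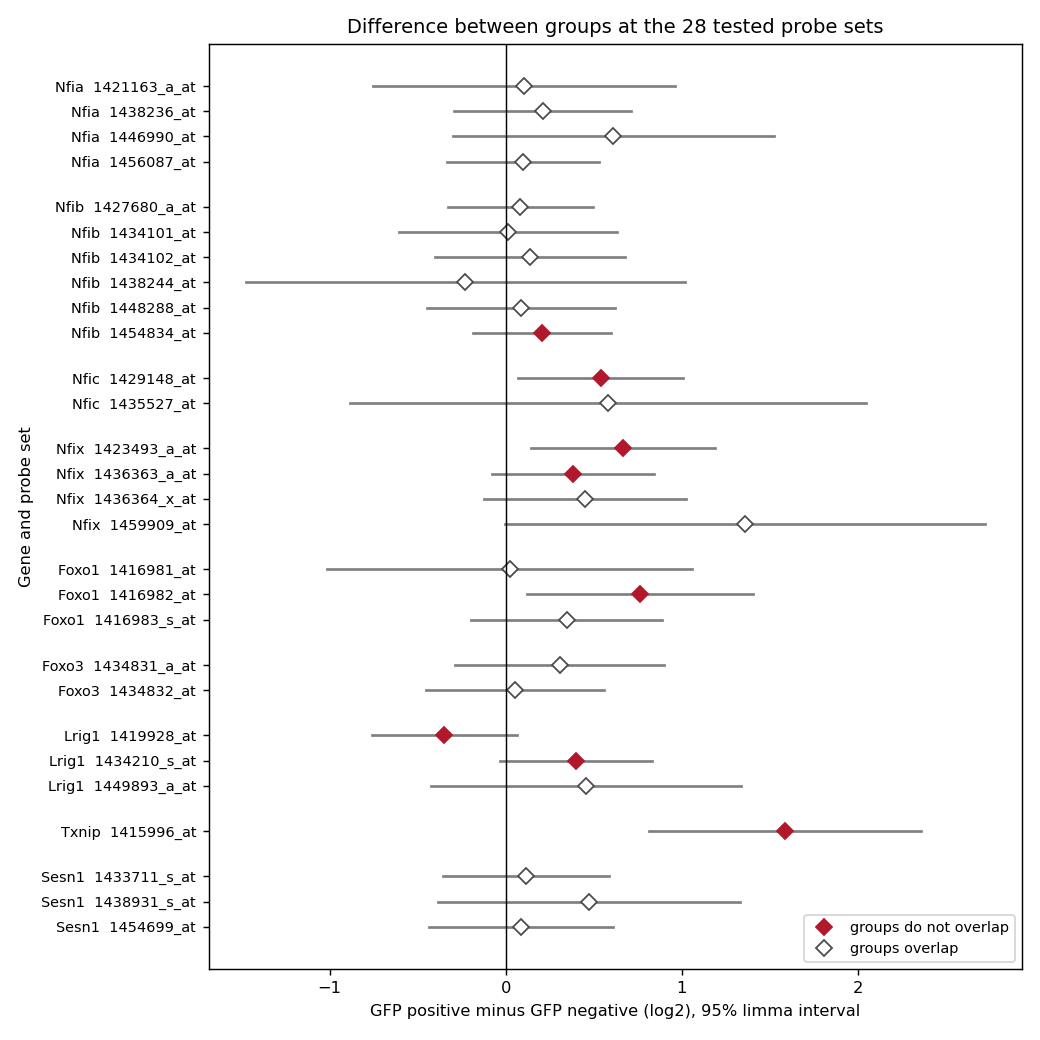
Difference between GFP positive and GFP negative cells (log2) at the 28 tested probe sets with 95% limma intervals; filled symbols mark the 8 probe sets whose groups do not overlap. The largest difference is at Txnip (1.59), and 2 differences, at Lrig1 1419928_at and Nfib 1438244_at, lie below 0.

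The 11 probe sets that were not tested belong to 8 of the genes, all but Lrig1 of those measured. Their values ran from 2.07 to 4.47, and their differences from −0.20 (Sesn1 1444376_at) to 0.36 (Nfic 1427665_a_at). Only 2 of them reached log2 4 on any array, Nfia 1427733_a_at at 4.47 on GFP negative replicate 1 and Sesn1 1444376_at at 4.11 on GFP negative replicate 2. A further probe set (1444226_at) is annotated to Foxo3 and Gm38485 together and was left out.

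Genes around the members were read from a set of lists, each gene at its brightest probe set. Over all 10531 such genes, 2.30% passed (1.20% higher, 1.10% lower), 9.17% and 7.65% had an unadjusted p under 0.05, 50.5% had a difference above 0, and the median difference was 0.0049. Of 20 FoxO target genes 19 were tested and 0 passed limma; 7 were higher and none lower with an unadjusted p under 0.05, and the median was 0.47. Txnip and Sesn1 are among them. Its 2 brightest genes were Pink1, a kinase of mitochondrial quality control, at 12.82 ± 0.03 against 12.05 ± 0.35 (SD, n = 3 each; limma adjusted p = 0.153), and the sestrin Sesn3, at 12.59 ± 0.07 against 12.30 ± 0.20 (limma adjusted p = 0.537). The others under 0.05, named after their values were seen, were Gadd45a (0.85), Rbl2 (0.67), Bnip3 (0.61), Bcl6 (0.60) and Pik3ip1 (0.54). A difference above 0 was seen for 17 of the 19 tested targets. The 2 below 0, also named after their values were seen, were Fbxo32 (−0.31) and Cited2 (−0.23). Without GFP negative replicate 3, 3 genes passed: Pink1, Irs2 and Klf2 (the latter pair named after their values were seen). In that fit 446 of all 10531 genes passed higher and 220 lower, against 126 and 116 in the main fit.

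Genes that act on FoxO, mTORC1 or the EGF receptor gave mixed signs. Of 17 tested genes of PI3K and AKT signalling, 0 passed limma, 1 was higher and 1 was lower with an unadjusted p under 0.05 (Phlpp1, an AKT phosphatase, 0.55, and Pik3cb, a catalytic PI3K subunit, −0.61, both named after their values were seen), and the median was 0.12. Its brightest genes, Ywhaz (−0.02) and Sgk1 (−0.28), a kinase that phosphorylates FoxO factors, did not pass (limma adjusted p = 0.981 and 0.576). Of 16 tested sestrin and mTORC1 genes, 0 passed and 8 lay above and 8 below 0 (median 0.0074). Prkaa2, a catalytic subunit of the energy sensor AMPK, was the only one under an unadjusted p of 0.05, at 0.77 (limma adjusted p = 0.0932; named after its value was seen), and Rheb, which activates mTORC1, differed by −0.03. Of 9 tested genes of the Lrig and EGF receptor families, 0 passed and the median was −0.18. Tgfa, an EGF receptor ligand, was the only one under 0.05 (1.27, limma adjusted p = 0.189; named after its value was seen), and the feedback inhibitor Errfi1 differed by −0.18. Of 13 tested alpha-arrestin, thioredoxin and Mondo genes only Txnip was under 0.05; Txn1, thioredoxin itself, differed by −0.17 and the glucose transporter Slc2a1 by 0.13, and neither passed. Without GFP negative replicate 3, passes on these lists were Akt2 and Irs2 (PI3K and AKT), Stk11 (mTORC1), Tgfa (EGF receptor) and Txnrd3 (thioredoxin). With array weights they were Akt2, Prkaa2, Tgfa and Txnip. All of these but Txnip were named after their values were seen. Passes were also more frequent over all 10531 genes in these fits. Without GFP negative replicate 3, 446 passed higher and 220 lower, and with array weights 600 and 305, against 126 and 116 in the main fit.

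Among 15 astroglial genes linked to NFI, 2 rose and 1 fell, with a median of 0.38; 5 were higher and 1 was lower with an unadjusted p under 0.05. Gfap, the astrocyte intermediate filament and a known NFI target, was 2.83-fold higher, at 11.76 ± 0.06 against 10.26 ± 0.41 (SD, n = 3 each; limma adjusted p = 0.0376). Slc1a2, an astrocyte glutamate transporter, was 2.33-fold higher (12.82 ± 0.09 against 11.60 ± 0.20, limma adjusted p = 0.0339). Gfap and Slc1a2 are also among the 3 astrocyte markers that rose above, so they are not a separate result. The third, Aqp4, is not on this list and was 2.78-fold higher (limma adjusted p = 0.0258). S100b and Aldoc are on both lists too. Ezh2, a Polycomb methyltransferase that NFI factors are known to repress, was 1.88-fold lower (9.31 ± 0.03 against 10.22 ± 0.06; limma adjusted p = 0.0497). Ezh2 is also known to be higher in dividing cells, and cell division genes were lower in GFP positive cells by the values given above. Whether NFI factors or cell division bear on the Ezh2 difference was not tested. Of these 15 genes, 0 passed without any 1 of the 3 GFP positive arrays or without GFP negative replicate 1 or 2, and 5 passed without GFP negative replicate 3 (the same 3, S100b and Mmd2); with arrays set to a common median Ezh2 did not pass, and without suffixed probe sets only Slc1a2 did. Over all 10531 genes, 446 passed higher and 220 lower without GFP negative replicate 3. Fabp7, a further known NFI target, differed by −0.01, and Sox9, a partner of Nfia, by 0.38; neither passed.

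**Figure D4:**
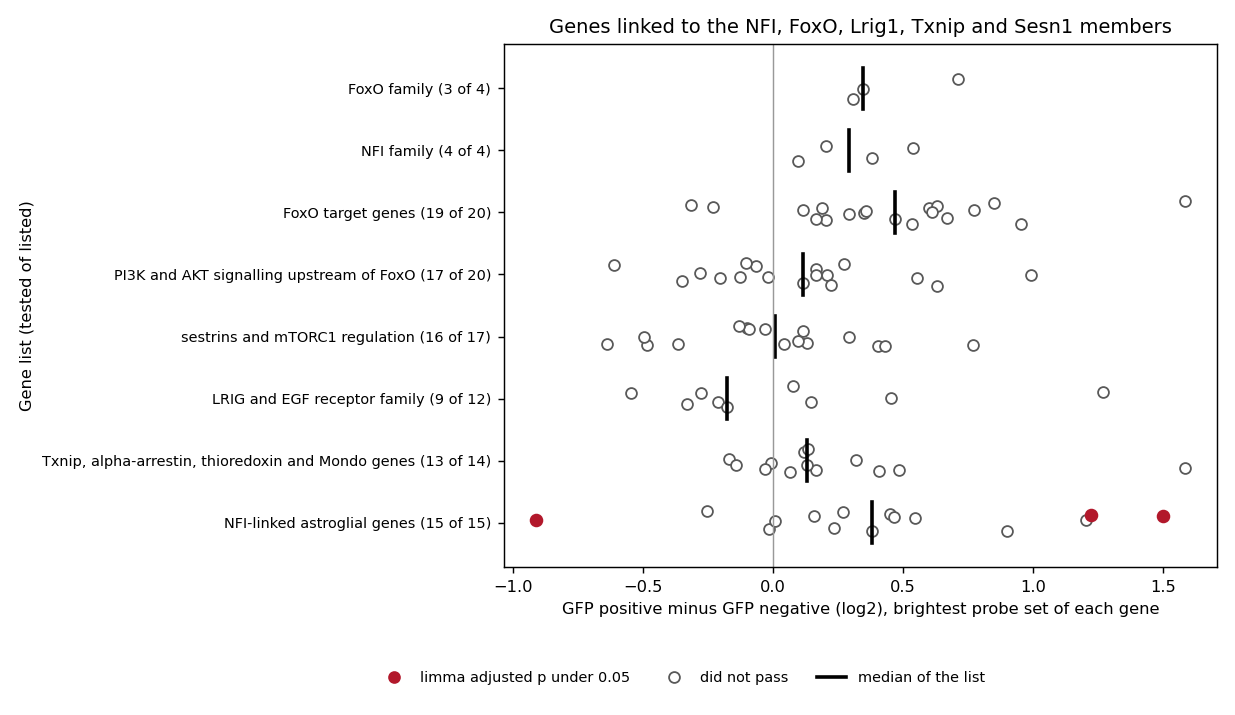
Difference between GFP positive and GFP negative cells (log2) for each tested gene of the 8 lists, at its brightest probe set; filled symbols passed limma at an adjusted p under 0.05 and bars are list medians. The 3 filled genes are all on the astroglial list: Slc1a2 and Gfap to the right and Ezh2 to the left.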

How the data were processed

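Total RNA of mouse neural stem cells was hybridised to Affymetrix arrays, 1 array per sample. The authors' deposited log2 signals come from GCRMA, as the submitters' processing notes name it, with no version or genome build given. This method corrects background by probe sequence, normalizes the arrays to a common distribution and combines the probes of a probe set. Dim probe sets end near a common floor, and the method would not show a shift of all genes. No further normalization was applied.

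Of 45101 probe sets, 64 controls were left out. Of the rest, 34945 named exactly 1 gene in the platform annotation, and 34741 matched RefSeq by gene identifier. Probe sets at log2 4 or more on at least 3 of 6 arrays, whatever the group, were tested: 21837. Groups came from the sample titles. The test was limma (version 3.58.1, R 4.3.3) with lmFit and eBayes and no covariate, Benjamini-Hochberg adjusted over all probe sets tested at 0.05. Differences are GFP positive minus GFP negative. Only 3 arrays per group limit the precision. The labels do not say whether samples came from separate animals or cultures, so p-values refer to these samples only. The eBayes step draws the variance of each probe set toward a value shared by all tested probe sets. SEs, intervals and p-values therefore do not rest on the spread of a probe set's own 6 values alone. At Nfib 1454834_at, for example, the group SDs were 0.033 and 0.060 and the SE was 0.17. The fit was also tested on simulated data of these 21837 probe sets, with independent noise and 50 changed probe sets per size. It recovered 0% of differences of 0.5, 8% of 1, 56% of 2 and 76% of 3, with 2 false calls. With so few changed probe sets the adjustment is strict, so these rates need not hold for the real table.

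Members, gene lists and tests were chosen with earlier results of these data known. In the lists, the genes named are up to 2 per direction past the threshold with the largest difference, or otherwise the 2 brightest; others are said to be named after their values were seen. Motifs were searched, and tables made, with Python 3.11.15. Alternatives were other filters, scalings, variance models and array weights, 1 probe set per gene, no suffixed probe sets, a replicate block, the 3′ to 5′ ratio as a covariate, and each array left out.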

Additional observations from a re-analysis of the deposited data

How the results depend on the processing

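The count over the whole table was 408 probe sets, 203 without a filter, 1728 with array weights, 0 with the 3′ to 5′ covariate (limma; unadjusted p under 0.05 for 1277 with a higher and 1123 with a lower mean), and 0 to 1235 with 1 array left out: 0 without any of the 3 GFP positive arrays, 135, 7 and 1235 without GFP negative replicate 1, 2 or 3. Other filters, scalings and variance models, suffixed probe sets left out, and 1 probe set per gene gave 294 to 470. The count of member probe sets called by limma was 0, and 0 in each fit with 1 array left out (1 to 7 at an unadjusted p under 0.05). It was 1 with 1 probe set per gene (Txnip) and 3 with array weights (Txnip, Nfix 1423493_a_at and Foxo1 1416982_at) (the weights ran from 0.178, GFP negative replicate 3, to 7.39, GFP positive replicate 2). Replicate numbers are shared between the groups, and the labels do not say whether they pair the arrays. Deviations from the group means correlated at −0.55 to −0.040 between arrays of the same number. None of the 6 arrays correlated best with its own number (0 of 6). With 3 arrays per group, 1 of which stood apart, these values cannot settle whether the arrays are paired. With the replicate block 0 probe sets passed limma over the table (unadjusted p under 0.05 for 1269 higher and 1123 lower) and 0 among the members (2 at an unadjusted p under 0.05). Of 249 member values under other settings, 238 kept their sign and their side of the threshold, 4 newly passed and 7 changed sign, none of them under another scaling. With array weights the sign changed at Nfia 1421163_a_at (−0.17), Nfib 1434101_at (−0.10) and Foxo3 1434832_at (−0.067). With the 3′ to 5′ covariate it changed at Nfia 1421163_a_at (−0.17), Nfib 1434101_at (−0.064), Nfib 1448288_at (−0.17) and Foxo1 1416981_at (−0.20). With 1 array left out 18 of 168 values changed sign, all at differences that did not pass: the ranges were −0.20 to 0.50 at Nfia 1421163_a_at, −0.0064 to 0.18 at Nfia 1456087_at, −0.23 to 0.23 at Nfib 1434101_at, −0.059 to 0.29 at Nfib 1434102_at, −0.73 to 0.24 at Nfib 1438244_at, −0.10 to 0.25 at Nfib 1448288_at, −0.28 to 0.45 at Foxo1 1416981_at, −0.12 to 0.14 at Foxo3 1434832_at, −0.018 to 0.22 at Sesn1 1433711_s_at, −0.078 to 0.26 at Sesn1 1454699_at. The cause of these changes was not tested.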

Other observations

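The probe set annotated to both Foxo3 and Gm38485 (1444226_at) read 3.72, 2.69 and 2.69 on GFP positive and 3.79, 4.42 and 4.61 on GFP negative arrays. Its GFP negative values were all above its GFP positive ones, while the tested Foxo3 probe sets overlapped between the groups. It lay near background on 4 of the arrays and was not tested.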
